A study of Mus musculus with 13 samples.

Results

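The genes described are 6 that encode membrane transporters and channels of red cells: Slc2a1, Slc2a4, Slc43a1, Slc22a4, Slc12a4 and Kcnn4. They were taken by name from the 2036 genes of the authors' deposited table, and they were chosen by their measured levels and calls in mouse fetal livers of differing Klf1 genotype. Those values are therefore a description, and no test of them was made. mRNA came from whole fetal livers at 14.5 days post coitum of 3 genotypes, with 3 replicates each: KLF1 +/-, which keeps 1 intact allele, KLF1 D45/-, which carries the MommeD45 allele over a null allele, and KLF1 -/-. All of these livers carry at least 1 null allele, so the RNA data hold no wildtype liver. KLF1-bound chromatin of fetal livers, also at 14.5 days post coitum, was sequenced in 1 wildtype and 1 MommeD45 library, each pooling 2 replicates. An input library of the same age accompanied each of them. The sources used here do not give the strain of the mice, the construction of the null allele, or whether the MommeD45 livers used for chromatin had 1 or 2 copies of that allele.

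KLF1, a zinc finger protein made by red cell precursors, binds CACCC-type DNA elements and mostly activates transcription. By the title of the series its mutations lie in linker-2 of the protein, and the title names membrane transporters and hemolysis. A red cell takes up glucose, its main fuel, and amino acids by facilitative transporters. Its water content follows its salt content, which is set by sodium, potassium and chloride movements. Loss of potassium chloride through the KCl cotransporters, or of potassium through the calcium-activated channel encoded by Kcnn4 (the Gardos channel), shrinks the cell, and overactive KCNN4 in humans causes hereditary xerocytosis, a hemolytic anemia with dehydrated cells. Slc2a1 encodes the glucose transporter GLUT1, which red cells of fetal mice carry, and Slc2a4 the insulin-responsive transporter GLUT4. Slc43a1 encodes LAT3, a facilitative transporter of large neutral amino acids, Slc22a4 encodes OCTN1, a transporter of organic cations and ergothioneine, and Slc12a4 encodes the potassium chloride cotransporter KCC1.

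All values of mRNA are abundances in FPKM, fragments scaled by transcript length and by the number of mapped fragments, so that levels can be set beside each other per length. The authors' deposited table gives 1 such value per genotype, only for comparisons that passed their threshold of a q of 0.05, and no value of single replicates. The spread between replicates and the sequencing depth are therefore unknown, and no order of neighbouring levels can be set against an error. The authors' deposited table put Klf1 itself at 378 FPKM (+/-), 398 (D45/-) and 34.8 (-/-). Erythroid markers were abundant in +/- livers, from 159 FPKM for Tfrc to 1607 for Alas2 in the authors' deposited table. In bulk liver, fewer red cell precursors and less mRNA per precursor cannot be told apart.

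The 6 genes spanned a wide range in +/- livers. Slc2a1 was at 690 FPKM, Slc43a1 at 172, Kcnn4 at 170, Slc22a4 at 24.1, Slc12a4 at 11.9 and Slc2a4 at 10.7 in the authors' deposited table. Each was lower in D45/-, and each of the 5 genes with a value in -/- was lower still there. The order of levels differed between genotypes. In D45/- livers Kcnn4 (75.5 FPKM) stood above Slc43a1 (31.0), and Slc22a4 (11.5) above Slc12a4 (6.93), in the authors' deposited table. Slc2a4 was the lowest of the 6 in D45/- and of the 5 with a value in -/-.

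**Figure D1:**
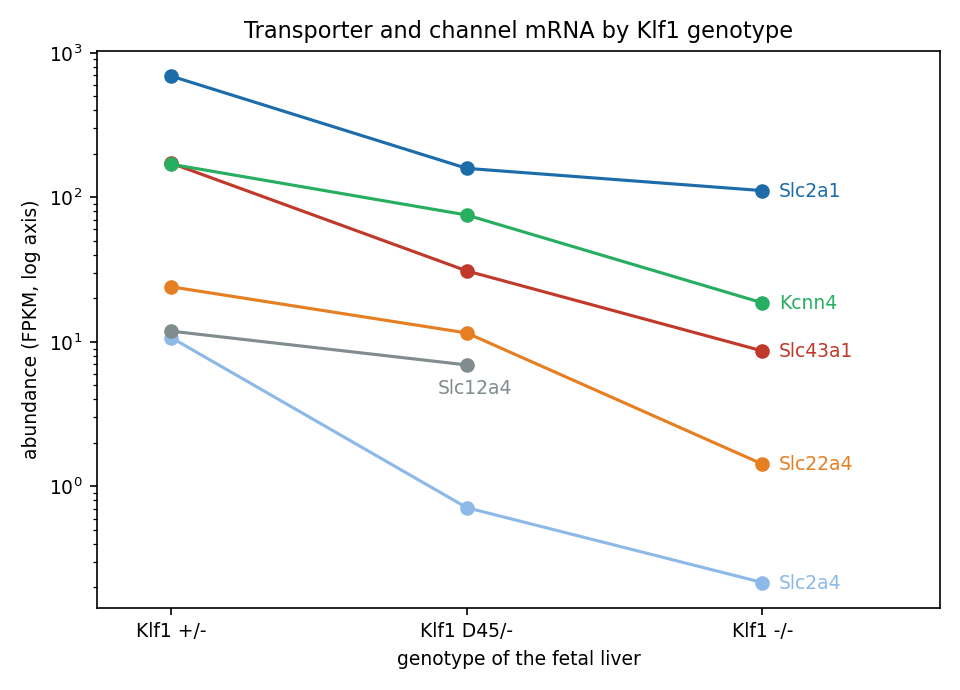
Abundance of the 6 genes by Klf1 genotype (x axis: genotype; y axis: FPKM on a log axis; 1 value per genotype from the authors' deposited table, with no error available). Every line falls from +/- to D45/-, steepest for Slc2a4 (10.7 to 0.714 FPKM), and Slc12a4 has no value in -/-.

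By the authors' deposited table, 6 of 6 genes were called lower in D45/- than in +/-, where 1.10% of all tested genes were. They were picked for this pattern, and nothing is read from the count. For -/- against +/- 5 of 6 were called lower, with 6.78% of all tested genes lower, and for D45/- against -/- 4 of 6 were called higher, with 3.48% of all tested genes higher, in the authors' deposited table. These comparisons share livers, since each genotype enters a pair of them.

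Promoter sequence was found for 5 of the 6 genes in RefSeq (build GRCm38.p6), Slc2a4 being the one without an entry. The 250 bases before each start are shown because KLF1 binds CACCC-type words. Capitals mark every match to CCNCNCCC, a broad KLF consensus, on either strand. Overlapping matches run together in the capitals.

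Slc2a1, chr4:119108495-119108744, plus strand: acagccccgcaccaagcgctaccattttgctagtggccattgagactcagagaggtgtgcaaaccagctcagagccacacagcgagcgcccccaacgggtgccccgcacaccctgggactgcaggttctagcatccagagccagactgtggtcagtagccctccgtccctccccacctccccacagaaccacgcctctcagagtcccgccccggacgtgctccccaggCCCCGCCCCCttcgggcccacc
Slc43a1, chr2:84840073-84840322, plus strand: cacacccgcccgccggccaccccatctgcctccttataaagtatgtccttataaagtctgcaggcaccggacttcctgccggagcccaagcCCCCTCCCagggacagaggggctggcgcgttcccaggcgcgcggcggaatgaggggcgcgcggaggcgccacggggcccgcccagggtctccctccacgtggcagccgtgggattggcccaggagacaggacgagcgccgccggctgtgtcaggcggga
Slc22a4, chr11:54028105-54028354, minus strand: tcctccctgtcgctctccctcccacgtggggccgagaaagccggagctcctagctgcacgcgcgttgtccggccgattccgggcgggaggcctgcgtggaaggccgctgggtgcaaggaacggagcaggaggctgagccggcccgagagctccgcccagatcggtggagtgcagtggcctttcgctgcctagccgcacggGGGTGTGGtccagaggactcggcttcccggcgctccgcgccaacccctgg
Slc12a4, chr8:105966116-105966365, minus strand: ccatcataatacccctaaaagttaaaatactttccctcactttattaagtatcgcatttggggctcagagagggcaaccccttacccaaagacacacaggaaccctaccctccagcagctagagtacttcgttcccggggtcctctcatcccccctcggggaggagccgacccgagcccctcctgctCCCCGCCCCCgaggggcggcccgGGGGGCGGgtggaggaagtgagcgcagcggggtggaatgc
Kcnn4, chr7:24370013-24370262, plus strand: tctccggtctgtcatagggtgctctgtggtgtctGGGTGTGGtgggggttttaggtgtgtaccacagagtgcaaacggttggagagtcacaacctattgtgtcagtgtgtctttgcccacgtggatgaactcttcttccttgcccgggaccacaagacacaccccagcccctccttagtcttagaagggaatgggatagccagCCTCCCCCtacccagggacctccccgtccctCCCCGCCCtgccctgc

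Every one of the 5 promoters held the broad word, with 3 matches in Kcnn4, 3 in Slc12a4, 2 in Slc2a1, 1 in Slc43a1 and 1 in Slc22a4. It is a common word, found in 45.9% of all 32851 mouse promoter windows of that length in RefSeq. The letters within the word differed between the genes. Slc22a4 and Kcnn4 held CCACACCC, read on the opposite strand as GGGTGTGG, which starts 50 bases before the start of Slc22a4 and 216 bases before that of Kcnn4, and which 3.20% of all promoter windows hold. The matches in Slc2a1 and Slc12a4 were the GC-rich words CCCCGCCC (16.1% of windows) and CCGCCCCC (10.2%), and the match in Slc43a1 was CCCCTCCC (10.9%). Kcnn4 held CCCCGCCC as well, and CCTCCCCC (7.36% of windows). The shorter word CACCC, searched on both strands and overlapping the broad word in Slc22a4, Slc12a4 and Kcnn4, was in all 5 promoters and in 52.0% of all windows. AGATAA and TGATAA, words of the red cell factor GATA1, were in none of the 5, against 9.99% and 7.94% of all windows, again on both strands.

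Slc2a1 was the most abundant of the group. Its mRNA stood at 690 FPKM (+/-), 159 (D45/-) and 111 (-/-) in the authors' deposited table. D45/- livers thus held 23.0% and -/- livers 16.1% of the +/- level. It was called 4.35-fold lower in D45/- than in +/- (log2 ratio -2.12, q 0.00159) and 6.20-fold lower in -/- (log2 ratio -2.63, q 0.00159) in the authors' deposited table. Between D45/- and -/- it was not called, and of the 5 genes with 3 levels it had the smallest ratio of the D45/- to the -/- level, although in FPKM the levels of Slc2a4 lay closer together. A gene without a call had not passed the authors' threshold or was not tested, which does not show equal levels. The q of 0.00159 is the lowest listed in the authors' deposited table, so genes that share it are not shown to be equally well supported.

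Slc2a4 was much rarer than Slc2a1 and fell more. The authors' deposited table gave it 10.7 FPKM (+/-), 0.714 (D45/-) and 0.217 (-/-). It was 15.0-fold lower in D45/- (log2 ratio -3.91, q 0.00159), the fourth lowest of 228 called genes, and 49.5-fold lower in -/- (log2 ratio -5.63, q 0.00159), in the authors' deposited table. D45/- livers lay above -/- livers by a log2 ratio of 1.72 (q 0.0364) there, at abundances below 1 FPKM in both. With 1 FPKM added to every value the fall in D45/- became a log2 ratio of -2.77 and that in -/- -3.27, and the difference between D45/- and -/- shrank to 0.49. Slc2a1 mRNA exceeded Slc2a4 mRNA 64.4-fold in +/-, 222-fold in D45/- and 514-fold in -/- livers, by the levels of the authors' deposited table. The D45/- and -/- ratios rest on Slc2a4 levels of 0.714 and 0.217 FPKM, and no pseudocount was added to them. With denominators this low, the rise of the ratio across genotypes is not read as a result.

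A further glucose transporter gene, Slc2a3, was called, and in the opposite direction. Of 13 glucose transporter genes in a list, 2 were called lower in D45/- than in +/-, and they were Slc2a1 and Slc2a4 themselves. Slc2a3, which encodes GLUT3, a transporter of high glucose affinity best known from neurons, was at 27.9 FPKM (+/-), 25.9 (D45/-) and 98.6 (-/-) in the authors' deposited table. It was called higher in -/- than in +/- (log2 ratio 1.82, q 0.00159) and lower in D45/- than in -/- (-1.93, q 0.00159) there. The summed level of the 3 listed glucose transporters was 729 FPKM (+/-), 185 (D45/-) and 210 (-/-). Of the 3, Slc2a3 alone was at a higher level in -/- than in D45/-. The other 10 genes of the list had no call in any comparison of the authors' deposited table.

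Slc43a1 was lower in D45/- and lower again in -/-. Its mRNA was at 172 FPKM (+/-), 31.0 (D45/-) and 8.66 (-/-) in the authors' deposited table. It was called 5.56-fold lower in D45/- than in +/- (log2 ratio -2.48), 19.9-fold lower in -/- (log2 ratio -4.32) and 3.58-fold higher in D45/- than in -/- (log2 ratio 1.84), each at a q of 0.00159, in the authors' deposited table. In D45/- against +/- it was the thirteenth lowest of 228 called genes.

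Of 24 amino acid transporter genes, 2 were called lower and 0 higher in D45/- than in +/- in the authors' deposited table, and 7 lower and 2 higher in -/-. The other gene lower in D45/- was Slc1a5, which encodes ASCT2, an exchanger of glutamine and other neutral amino acids. Slc1a5 was at 98.5 FPKM (+/-), 17.7 (D45/-) and 17.6 (-/-) in the authors' deposited table. Its fall in D45/- (log2 ratio -2.47) equalled that of Slc43a1 to within 0.01, while its fall in -/- (-2.48) was smaller, in the authors' deposited table. The genes for glycine transporter 1 (Slc6a9, 47.5 against 109.8 FPKM) and for the large neutral amino acid transporter LAT1 (Slc7a5, 69.2 against 132 FPKM, named after its values were seen) were lower in -/- than in +/-, with no call in D45/-, in the authors' deposited table. Slc38a5, also named after its values were seen, which encodes a glutamine and glycine transporter, was at 98.2 FPKM (+/-), 97.4 (D45/-) and 59.5 (-/-) in the authors' deposited table. Slc1a4, which encodes the neutral amino acid transporter ASCT1, stood at 8.82, 9.63 and 19.3 FPKM in the same order there, and was called higher in -/-. The arginine transporter gene Slc7a3 was also higher in -/- (2.72 against 0.354 FPKM in the authors' deposited table). In D45/- against -/- 2 of the 24 were lower and 3 higher, against 4.89% and 3.48% of all tested genes. Slc16a10, another gene of the list, was at 32.5 FPKM (+/-), 29.0 (D45/-) and 16.4 (-/-) in the authors' deposited table. It was called lower in -/- than in +/- and higher in D45/- than in -/- there.

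Slc22a4 kept more of its level in D45/-. It was at 24.1 FPKM (+/-), 11.5 (D45/-) and 1.43 (-/-) in the authors' deposited table. Its call in D45/- was 2.09-fold lower than +/- (log2 ratio -1.06) and its call in -/- 16.8-fold lower (log2 ratio -4.07), while D45/- lay 8.08-fold above -/- (log2 ratio 3.01), each at a q of 0.00159, in the authors' deposited table. Among 12 organic cation and carnitine transporter genes it was the one called against +/- livers. Slc22a23, an orphan member of the family, was called higher in D45/- than in -/- (34.3 against 21.1 FPKM, q 0.0443) in the authors' deposited table.

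Slc12a4 had the smallest change. It was at 11.9 FPKM in +/- and 6.93 in D45/- livers in the authors' deposited table, which is 58.4% of the +/- level. The call (log2 ratio -0.78, p 0.0038, q 0.0481) lay close to the largest p listed anywhere in the authors' deposited table, 0.00395. With q recomputed within this comparison alone the call was lost (q 0.217). It had no call involving -/- livers, so its level there is not in the authors' deposited table. Of 13 genes for cation chloride cotransporters and the kinases that regulate them, Slc12a4 was the one called in D45/- against +/-. The kinase genes Wnk4 (21.2 against 10.3 FPKM) and Stk39 (1.34 against 2.95 FPKM), which encode regulators of these cotransporters, were called higher and lower in D45/- than in -/- in the authors' deposited table.

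Kcnn4, the Gardos channel gene, was at 170 FPKM (+/-), 75.5 (D45/-) and 18.6 (-/-) in the authors' deposited table. It was called 2.25-fold lower in D45/- (log2 ratio -1.17), 9.10-fold lower in -/- (log2 ratio -3.19) and 4.05-fold higher in D45/- than in -/- (log2 ratio 2.02), each at a q of 0.00159, in the authors' deposited table. Of 19 potassium and cation channel symbols it was the one called in D45/- against +/-. In -/- livers 2 of the 19 were lower and 3 higher than in +/-. The other lower one was Piezo1, named after its values were seen, the mechanically gated cation channel whose overactivity also causes human hereditary xerocytosis, with 35.6 FPKM against 63.4 (log2 ratio -0.83, q 0.0229) in the authors' deposited table. The higher ones were Trpv2 (17.0 against 5.38 FPKM), Trpc6 (5.33 against 2.71) and Kcnh2 (1.11 against 0.312), all cation channel genes, in the authors' deposited table.

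Of 25 genes for pumps, exchangers and water channels of the red cell and for proteins associated with them, 0 were called lower and 1 higher in D45/- than in +/- in the authors' deposited table. That gene was Car1, a carbonic anhydrase that serves bicarbonate exchange, which the authors' deposited table gave at 299 FPKM against 62.4. In -/- against +/- 8 of the 25 were lower and Car1 was again higher. Slc4a1, the anion exchanger band 3, was at 2086 FPKM (+/-), 1690 (D45/-) and 568 (-/-) in the authors' deposited table. The calcium pump gene Atp2b4 stood at 58.8, 41.5 and 16.9 FPKM in the same order, and the water and glycerol channel gene Aqp3 at 35.6, 44.4 and 13.6, in the authors' deposited table. Rhd, which encodes a blood group membrane protein related to ammonium transporters, was at 618, 410 and 128 FPKM there.

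Over all 106 symbols of these lists, the 6 genes included, 7 were lower and 1 higher in D45/- than in +/-, 20 lower and 7 higher in -/- than in +/-, and 6 lower and 16 higher in D45/- than in -/-, by the authors' deposited table (4.89% and 3.48% of all tested genes in the last). The median log2 ratio of the called ones was -1.64, -1.18 and 0.84 in turn, beside -0.88, 0.75 and -0.87 over all called genes. The 6 genes, picked for low values, are 6 of the 8 calls behind the first of these medians. Without them the medians were -0.11, -0.88 and 0.74. The value of -0.11 is only the midpoint between Slc1a5 (log2 ratio -2.47) and Car1 (2.26), and no called gene of the lists lay near it. Of the 100 symbols other than the 6 genes, 1 was lower and 1 higher in D45/-, against 1.10% and 0.663% of all tested genes. In -/- 15 of these 100 were lower and 7 higher, against 6.78% and 7.00% of all tested genes. The 100 were counted whether or not they were tested, while these percentages are of 12965 genes assumed tested per comparison.

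**Figure D2:**
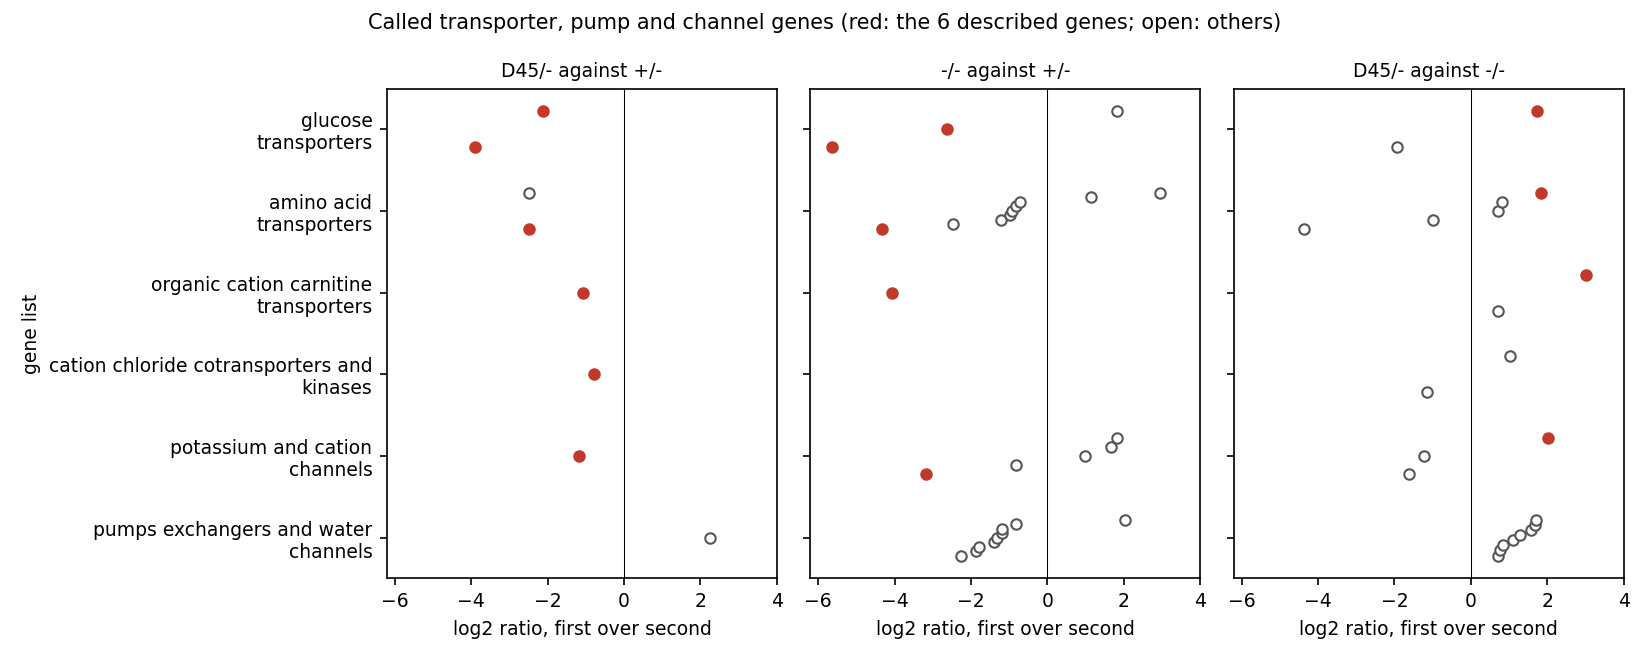
Log2 ratios (x axis, first-named genotype over second) of the called genes of 6 lists of transporters, pumps and channels (y axis), 1 panel per comparison, with the 6 described genes in red and others open. The lists also hold genes for associated proteins. In D45/- against +/- the red points lie below 0 with 1 open point beside them (Slc1a5). Car1, a carbonic anhydrase gene and not a transporter gene, is the open point above 0.

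The 6 genes were set beside erythroid markers, because the share of red cell precursors may differ between genotypes. Of 8 reported markers 0 were called in D45/- against +/-, 7 were called lower in -/- than in +/- and 7 higher in D45/- than in -/- in the authors' deposited table. Gata1 was the one of these without a call, and none of the others was at 0. Levels of these 7 markers summed to 4237 FPKM (+/-), 3344 (D45/-) and 1299 (-/-), which is 78.9% of the +/- sum in D45/- and 30.6% in -/-. The sum is not a measure of the share of red cell precursors, because the markers may themselves depend on KLF1, which was not tested. Ermap, among these markers, held a KLF1 peak in both the wildtype and the MommeD45 list. Each of the 7 kept between 66.3% (Rhd) and 88.4% (Alas2) of their +/- level in D45/-, while the 6 genes kept between 6.66% (Slc2a4) and 58.4% (Slc12a4). In -/- they kept between 19.1% (Ermap) and 39.6% (Alas2), and the 5 transporter genes with a value between 2.02% (Slc2a4) and 16.1% (Slc2a1). The ranges of these 7 markers and of the 6 genes with a value did not overlap in either genotype. Other genes of the transporter and pump lists lay inside the marker ranges, among them Slc4a1 (81.0% in D45/-, 27.3% in -/-) and Atp2b4 (70.6% and 28.8%). Slc1a5 lay below them (18.0% and 17.9%) and Car1 above (479% and 412%). Rhd is itself a gene of the pump list. The share of all listed genes inside these ranges was not computed. The 6 genes were chosen for low values and calls, while none of these markers was called in D45/- against +/-. With the spread between replicates unknown as well, the separation is not read as a result. The part of cell composition in the levels of the 6 genes was not tested. Some markers of other cell types of the fetal liver were also called between genotypes. Of all tested genes, 1.10% were called lower and 0.663% higher in D45/- than in +/-. In -/- against +/- 6.78% were lower and 7.00% higher, and in D45/- against -/- 4.89% lower and 3.48% higher. These shares stand beside the erythroid counts above too. A list with 1 call in each direction is not read as a change of its cell type. Of 10 megakaryocyte markers 3 were called higher in D45/- and 9 higher in -/- than in +/- in the authors' deposited table. Of 10 endothelial and stromal markers 0 were called in D45/- against +/-, 3 were higher in -/- than in +/- and 4 lower in D45/- than in -/- there. Of 10 macrophage marker symbols 1 was lower in D45/- than in +/- (Marco, at 34.7% of the +/- level) and 1 higher (Clec4f, at 324%), and Marco was higher in -/- (172%), in the authors' deposited table. Marco and Emr1 were lower and Clec4f higher in D45/- than in -/- there. Emr1 and Adgre1, both among the 10 symbols, name the same gene. Of 10 hepatocyte markers 1 was lower in D45/- (Serpina1b, at 51.8%) and 1 higher (Cps1, at 203%), and 0 were called in -/- against +/- there. The part of these cells in the levels of the transporter genes was not tested.

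**Figure D3:**
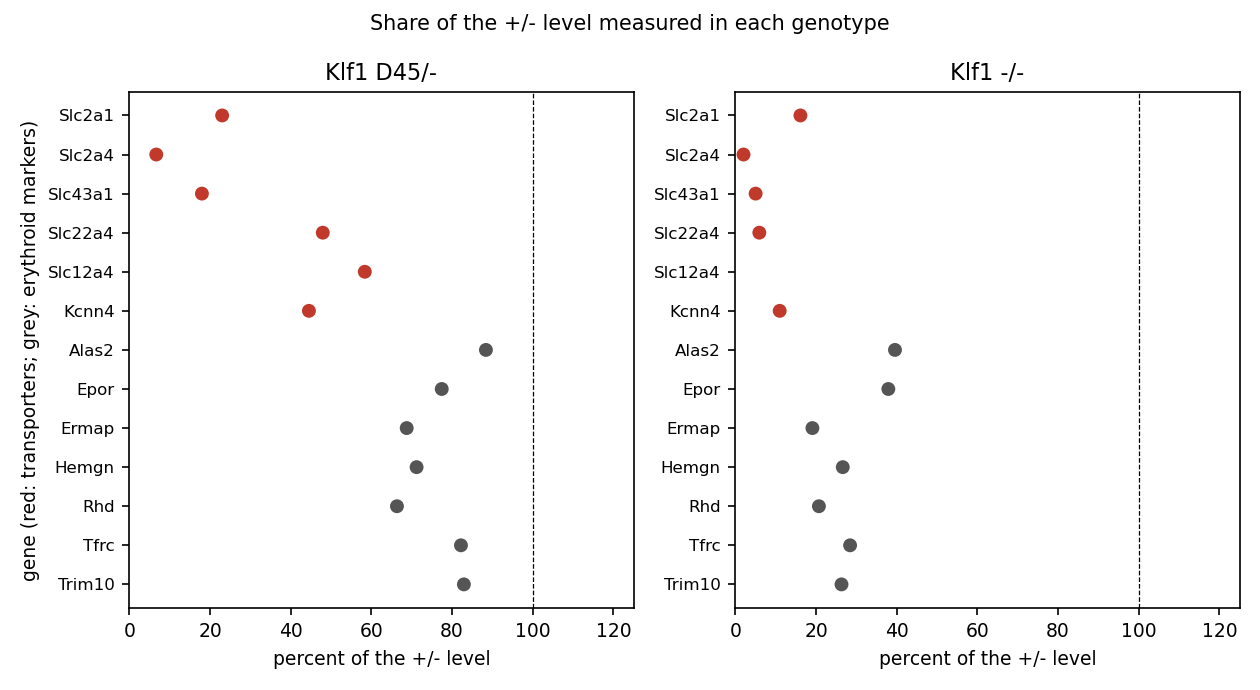
Level of each gene as a percentage of its +/- level (x axis) in D45/- and -/- livers, for the 6 described genes (red) and 7 erythroid markers (grey), from the authors' deposited table. In D45/- the red points end at 58.4% and the grey points begin at 66.3%, and in -/- they end at 16.1% and begin at 19.1%. Slc12a4 has no value in -/-. The 6 genes were chosen for low values, so the gaps are not read as a result.

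How far D45/- stood from -/- varied widely within the group. On the log2 scale the D45/- level had covered 19.4% of the distance from the -/- to the +/- level for Slc2a1 and 30.6% for Slc2a4. For Slc43a1 it was 42.6%, for Kcnn4 63.3% and for Slc22a4 74.0%. The 117 genes called lower than +/- in both mutant genotypes, the 5 included, had a median of 40.6% and quartiles of 23.0% and 57.2%. Slc2a1 thus lay below the lower quartile and Kcnn4 and Slc22a4 above the upper one, and the 5 genes did not share a common position. On the linear scale the percentages were smaller, from 4.73% for Slc2a4 to 44.7% for Slc22a4, and Slc2a4 then stood below Slc2a1. The median log2 ratios of the 117 genes were -1.12 in D45/- and -2.17 in -/-, beside -2.12 and -4.07 for the 5 genes, which were named for large changes.

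**Figure D4:**
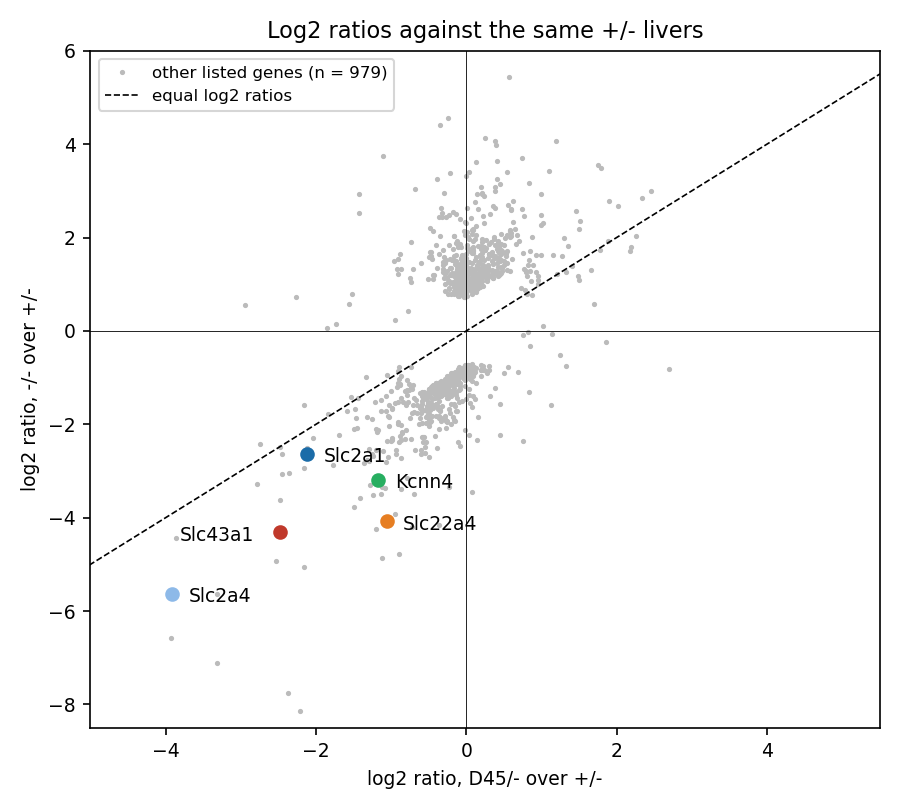
Log2 ratios of D45/- over +/- (x axis) and of -/- over +/- (y axis) for the 5 genes with levels in all genotypes (coloured) and 979 other listed genes (grey); the dashed line marks equal ratios. Both axes share the +/- value, so the tilt of the cloud is no result; Slc2a1 lies nearest the dashed line and Slc22a4 farthest from it among the 5.

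The genes closest in pattern were found by the distance between pairs of log2 ratios (D45/- over +/-, -/- over +/-) over 979 genes and 3 genotypes. For Kcnn4 the closest was the phosphatase gene Ptp4a3, at a distance of 0.039 (127, 57.8 and 14.3 FPKM in +/-, D45/- and -/- in the authors' deposited table). The next was the cell cycle transcription factor gene E2f2, at 0.163. For Slc22a4 the closest were Mgst3, a microsomal glutathione transferase gene (0.196), and the neurotrophic factor gene Artn (0.223). For Slc2a1 they were Sh3tc2 (0.132), at only 3.44 FPKM in +/- in the authors' deposited table, and Darc (0.309), which encodes the Duffy antigen receptor. The patterns of Slc2a4 and Slc43a1 had no such near match. Their closest genes were Paqr6 (0.586) and Phyhip (0.603), followed by Nxpe2 (0.956) and Nacad (0.695).

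KLF1 peaks were searched within 10 kb of each locus. Loci and peaks are given in build mm9, as the authors' files give them, and peak heights and fold enrichments over local background are the authors' values. In wildtype liver 3 of the 6 genes had a peak within 10 kb, with 5 peaks in all: Slc2a4, Slc43a1 and Kcnn4. In MommeD45 liver 1 of 6 had one, Kcnn4. Over all 2036 genes of the authors' deposited table, a share of 16.1% had a wildtype peak and 7.37% a MommeD45 peak within 10 kb. The 117 genes lower in both mutant genotypes had one in 35.9% and 12.8% of cases, and the 907 genes higher in -/- in 4.30% and 2.09%. With a single library for each genotype the peaks could not be tested, and a peak missing from a list had not passed the caller, which does not show that KLF1 was absent.

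Kcnn4 (chr7:25155281-25170231) had the strongest of these peaks. A wildtype peak at chr7:25162052-25162425 had its summit 6.94 kb inside the locus, a pileup of 59 and a fold enrichment of 7.70, rank 161 of 1203 wildtype peaks. The MommeD45 list held a peak at the same place, chr7:25162115-25162393, with a pileup of 38 and a fold enrichment of 6.89, rank 73 of 485. The summits lay within 100 bases of each other, and this was the one peak of the 5 found in both lists. Over all 1203 wildtype peaks, 361 (30.0%) had a MommeD45 counterpart, so nothing particular to these genes is read from that count. A second, weak wildtype peak, chr7:25154694-25154887, had its summit 451 bases before the start of the locus (fold enrichment 3.02, rank 1171) and no counterpart in MommeD45. It lies on the promoter side of the locus.

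Slc2a4 (chr11:69755787-69761692) had a pair of wildtype peaks and no MommeD45 peak within 10 kb. At chr11:69759932-69760163, inside the locus, the fold enrichment was 5.23 and the pileup 30, rank 519 of 1203. The other peak, chr11:69761613-69761877, spanned the upper end of the locus, with its summit 79 bases beyond it (fold enrichment 3.40, pileup 20, rank 1100). Farther out on that side were 3 more wildtype peaks, between 31.7 and 47.2 kb from the locus, the strongest of them with a fold enrichment of 10.7 (rank 78), and the MommeD45 list held none of them. On the other side a peak 41.1 kb away was in both lists, and it lay within 10 kb of the listed gene Acap1.

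Slc43a1 (chr2:84679564-84703743) had 1 wildtype peak inside its locus, at chr2:84682170-84682404, with its summit 2.73 kb from the start and a fold enrichment of 3.98 (pileup 30, rank 935 of 1203). Another wildtype peak lay 27.2 kb from the locus (fold enrichment 3.94, rank 944), within 10 kb of the listed gene Ube2l6. The MommeD45 list had no peak within 100 kb of Slc43a1. Whether peaks inside loci fell in exons or introns was not determined, because no mm9 annotation was used here.

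Slc2a1, Slc22a4 and Slc12a4 had no KLF1 peak within 10 kb in either list. The nearest to Slc2a1 (chr4:118781349-118809934) was 52.5 kb beyond its end, inside the listed gene Ermap, an erythroid membrane protein gene, and was in both lists (wildtype fold enrichment 10.4, rank 82 of 1203; MommeD45 4.06, rank 342 of 485). Slc22a4 (chr11:53796627-53841592) had 1 wildtype peak within 100 kb, 91.1 kb away, and Slc12a4 (chr8:108467489-108490015) had none.

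**Figure D5:**
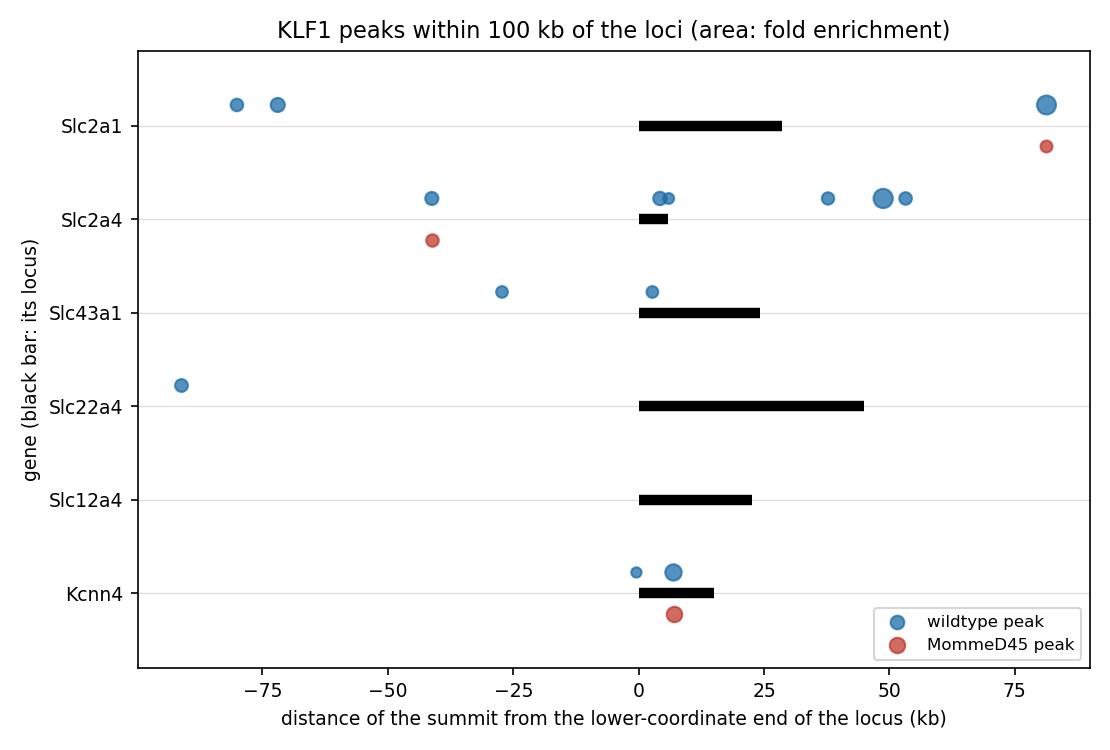
KLF1 peaks within 100 kb of the 6 loci (x axis: distance of the summit from the lower-coordinate end of the locus in kb; y axis: gene, with the locus as a black bar; area of a point: the authors' fold enrichment; blue wildtype, red MommeD45). Within 10 kb there are 5 wildtype points, at Slc2a4, Slc43a1 and Kcnn4, and 1 MommeD45 point, at Kcnn4.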

How the data were processed

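The members and gene lists were chosen with earlier results of these data known. Per the labels, globin transcripts were depleted and poly(A) RNA was sequenced on an Ion Proton instrument. The authors compared genotypes with cuffdiff, per the series design text. The deposited table, 3099 rows, holds abundances taken to be FPKM, although its header names no unit, log2 ratios without pseudocount, a test score, p-values and q-values. TopHat2 2.0.10 and mm9 come from the submitters' processing notes, and the sources used here do not give options or annotation. Ratios were turned to first-named over second genotype. The deposited q-values traced to 38894.1 tests at most over the 3 comparisons, and 12965 per comparison was assumed. Peaks were called with MACS2 after Bowtie2 mapping and Picard duplicate removal, per the deposited description sheet; the pileup signal, fold enrichment and −log10 p and q are the authors' values. A peak listed with several summits counted as 1 peak, at the summit of highest fold. Peaks sharing at least 1 base were called shared. Overlap and q functions were tested on simulated data. Named were the 6 members, up to 4 called genes per list and comparison by size of log2 ratio from 1 FPKM up, and the 2 genes nearest each member in pattern, with Klf1 and the markers at the ends of their range; exceptions are marked. Further erythroid markers of the chosen list are not reported here, so counts, sums and ranges of that list cover the other 8. Python 3.11.15, numpy 2.4.6 and pandas 2.3.3 were used.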

Additional observations from a re-analysis of the deposited data

How the results depend on the processing

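No paired analysis was possible because the authors' table gives 1 value per genotype, so neither a replicate block nor leaving out a replicate could be run. Of 88 recomputed values 73 stayed within 1.5 times the main one and 15 did not, log2 ratios being compared as folds; none changed direction. With a pseudocount of 1 FPKM the log2 ratios of Slc2a4 were -2.77 in D45/- against +/-, -3.27 in -/- against +/- and 0.49 in D45/- against -/-, and those of Slc22a4 were -3.37 in -/- against +/- and 2.37 in D45/- against -/-. The position of D45/- between -/- and +/- on the linear scale was 8.19% for Slc2a1, 4.73% for Slc2a4, 13.6% for Slc43a1, 44.7% for Slc22a4 and 37.7% for Kcnn4, and with 1 FPKM added before taking log2 it was 15.1% for Slc2a4. At a q under 0.01, 9 in place of 16 symbols of the transporter, pump and channel lists were higher in D45/- than in -/-. Within 50 kb, 2 of the 6 genes had a MommeD45 peak. With at least 5 FPKM in the highest genotype, the closest pattern lay at a distance of 0.309 for Slc2a1 and 1.09 for Slc43a1. The count of 6 genes called in D45/- against +/- became 5 at a q under 0.01 or with q recomputed within the comparison, Slc12a4 being lost. It became 4 with an absolute log2 ratio of at least 1 after adding 1 FPKM, Slc22a4 being lost as well. The count of 4 in D45/- against -/- became 3 at a q under 0.01, at that log2 ratio, and with at least 1 or 5 FPKM in the higher genotype, Slc2a4 being lost each time. Unknown depth limits what can be said of Slc2a4 below 1 FPKM.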
